A study of Mus musculus with 9 samples.

Results

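The serpin gene family was followed in mouse kidney across 3 groups of 3 arrays. Its members were the genes whose symbol begins with Serpin, a clade letter from a to i and a number, Serping1 left out, and 53 of the 22180 genes tested met that rule. The first group was given norursodeoxycholic acid (norUDCA, a side-chain-shortened relative of ursodeoxycholic acid) in the feed for 5 days before the common bile duct was tied, and is called norUDCA-fed CBDL (arrays norUDCA_CBDL_172, norUDCA_CBDL_175 and norUDCA_CBDL_179). The second had the same 3 weeks of common bile duct ligation without the prefeeding and is called CBDL (arrays CBDL_164, CBDL_165 and CBDL_170). The third was taken 3 weeks after a sham operation and is called sham (arrays sham_158, sham_159 and sham_160). Ligation stops bile from leaving the liver, and the series title speaks of the kidney injury that follows and of norUDCA lessening it. Strain, age, sex and whether the feed went on after the operation are not given in the labels, and a sham group fed norUDCA was not analysed here.

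Serpins are proteins that share one fold. Most of them offer a protease an exposed loop as bait and, once it is cut, change shape and hold the protease in a covalent trap. Circulating members limit neutrophil proteases, clotting and the dissolution of clots, clade B members work mainly inside cells, and a few members carry hormones or help proteins fold instead of inhibiting anything. In a whole kidney their transcripts can come from tubule cells, from fibroblasts and vessels and from blood-derived cells.

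Values are log2 signals of 1 array feature per gene, and every change is a difference of group means on that scale. Calls rest on a limma fit of the whole table: a gene is called at an adjusted p (Benjamini-Hochberg, 22180 genes) under 0.05. The median standard error of a difference was 0.14, and 3 arrays per group limit the precision. Nothing in the labels says that the replicates came from separate animals, so the p-values speak of the spread among these samples alone, which may be technical. On the second principal component (13.0% of the variance) sham_159 at -34.5 and CBDL_165 at -22.9 lay apart from the other 7 arrays, which were between 3.42 and 12.03, and calls that end without either array are given as such. Levels of different genes are not compared, since their probes differ. The dimmest 33.3% of genes had a mean signal under 5.2, where signal above background is not shown; they are called dim here, and 32 of the 53 members were among them.

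After ligation 6 serpin genes rose and 5 fell. Serpina3n, Serpina10, Serpina6, Serpinb6b, Serpinb9 and Serpinh1 were higher in CBDL than in sham, and Serpina1d, Serpinf2, Serpina1c, Serpina1f and Serpina11 were lower. The 11 calls are 20.8% of the family, while 21.8% of all genes were called (10.3% rose and 11.5% fell), so the family was called about as often as genes in general. For 16 of 53 members (30.2%) every CBDL array lay on one side of every sham array, against 35.6% of all genes. The median difference over the members was 0.05, and over all genes it was -0.06. The family therefore held a few large changes in both directions among many members with small differences. By size, Serpina3n had the largest increase of all 22180 genes, Serpina10 ranked 11 among increases, and Serpina1d and Serpinf2 ranked 31 and 35 among decreases.

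**Figure D1:**
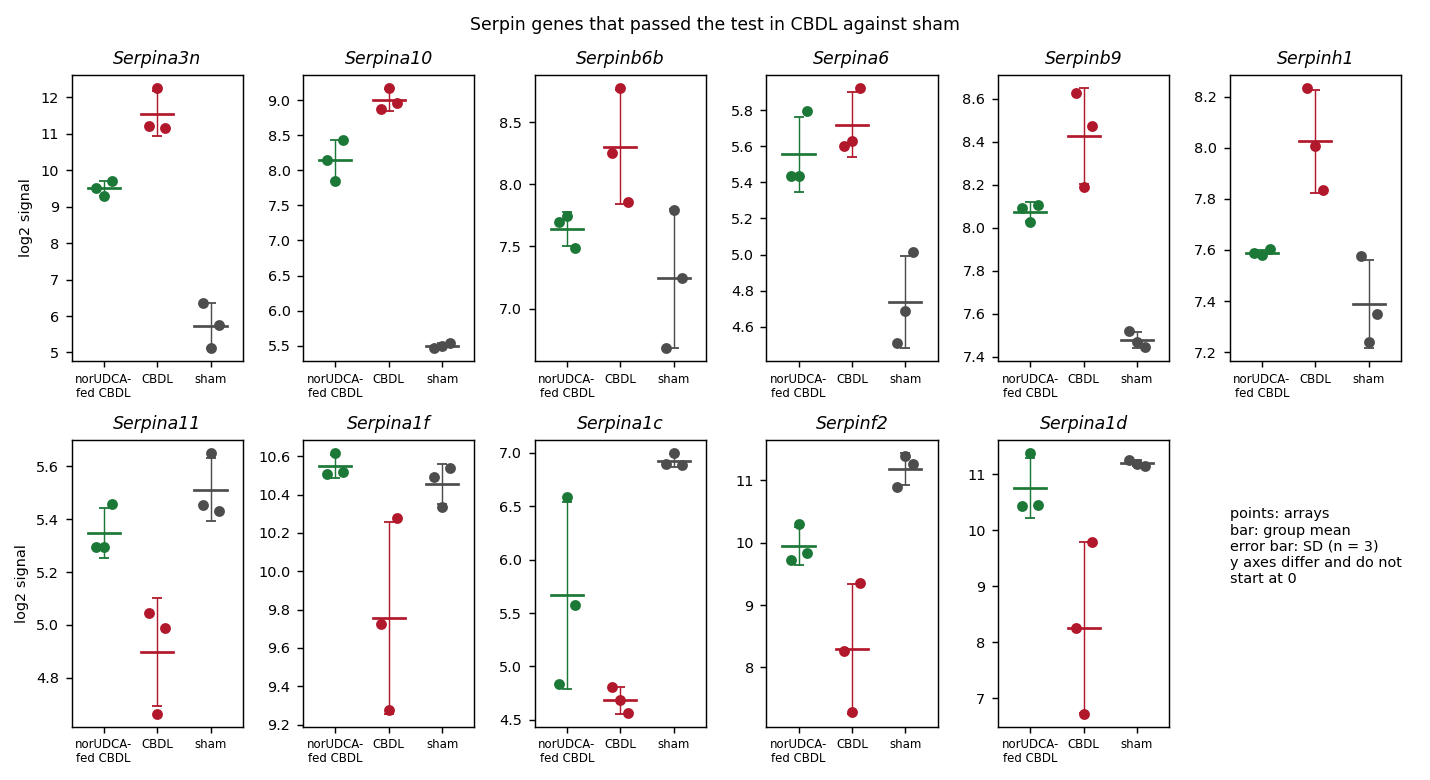
Log2 signal (y axis, different for each panel and not starting at 0) of the 11 serpin genes called in CBDL against sham, for norUDCA-fed CBDL, CBDL and sham. Points are arrays, bars are group means and error bars are SD (n = 3). CBDL and sham do not overlap in any of the 11 panels, whose genes were chosen by that comparison, and did not overlap for 35.6% of all genes. The CBDL arrays of Serpina1d spread from 6.73 to 9.78.

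Fewer members were called in the comparisons with norUDCA-fed CBDL. In norUDCA-fed CBDL against CBDL, Serpina1d and Serpinf2 rose and Serpina3n and Serpina10 fell. Leaving out 1 array gave 9 calls without CBDL_170, 2 without sham_160, 2 without norUDCA_CBDL_179 and 1 without norUDCA_CBDL_175. The 4 calls are 7.55% of the members, against 6.8% of all genes (3.61% rose and 3.2% fell). With each array centred on its median 6 members rose and 2 fell here. The arrays of these groups did not overlap for 18 members (34%), against 24.2% of all genes. In norUDCA-fed CBDL against sham, Serpina3n, Serpina10, Serpina6 and Serpinb9 rose and 0 members fell. These 4 calls are 7.55% of the members, against 3.18% of all genes (1.82% rose and 1.37% fell), and 12 members (22.6%) did not overlap, against 22.5% of all genes. At an unadjusted p under 0.05 the same limma fit held 8 members, and 2 calls were left without sham_158, without sham_159, without norUDCA_CBDL_172 or without norUDCA_CBDL_179. The CBDL arrays enter both of the first comparisons and the sham arrays enter 2 of the 3, so the values below are given side by side and no agreement between comparisons is read from them. In whole-kidney RNA, fewer cells of a type and less RNA per cell cannot be told apart.

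The extracellular inhibitor Serpina3n, a mouse relative of human alpha-1-antichymotrypsin and an acute phase protein, changed by the largest amount. Its log2 signal was 9.51, 9.30 and 9.71 in norUDCA-fed CBDL, 11.21, 12.27 and 11.17 in CBDL, and 6.35, 5.12 and 5.74 in sham. All 3 groups were apart, with norUDCA-fed CBDL between CBDL and sham. CBDL exceeded sham by 5.81 (SE 0.34, adjusted p = 1.85e-05), which is 56.1-fold. norUDCA-fed CBDL was lower than CBDL by 2.04 on the log2 scale (difference -2.04, SE 0.34, adjusted p = 0.0116), and this call ended without norUDCA_CBDL_175 (adjusted p = 0.0581). It stayed above sham by 3.77 (SE 0.34, adjusted p = 0.000886).

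Serpina3n lies in a cluster of closely related clade A genes, and none of its measured neighbours was called. Serpina3c, Serpina3f and Serpina3g had no row under the rule and were not followed. Whether the Serpina3n probes also read related genes was not tested. Serpina3a, Serpina3b, Serpina3i and Serpina3j had means over the 9 arrays under 5.2 and differences between 0.05 (Serpina3a) and 0.47 (Serpina3i) in CBDL against sham, with no call. The nearest to a call was Serpina3i, at 3.92 ± 0.13 in CBDL and 3.45 ± 0.08 in sham (SD, n = 3 each, limma adjusted p = 0.0891). The 250 bases before the annotated start of Serpina3n and of Serpina3i are shown because the 2 genes are neighbours with different values. They were taken from RefSeq on GRCm38.p6 (Serpina3n chr12:104406458-104406707, plus strand, and Serpina3i chr12:104262872-104263121, plus strand).
Serpina3n: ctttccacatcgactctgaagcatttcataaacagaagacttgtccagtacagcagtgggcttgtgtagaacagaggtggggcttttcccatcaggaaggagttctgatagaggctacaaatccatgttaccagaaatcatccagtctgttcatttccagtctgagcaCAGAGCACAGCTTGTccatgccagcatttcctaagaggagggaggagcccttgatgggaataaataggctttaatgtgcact
Serpina3i: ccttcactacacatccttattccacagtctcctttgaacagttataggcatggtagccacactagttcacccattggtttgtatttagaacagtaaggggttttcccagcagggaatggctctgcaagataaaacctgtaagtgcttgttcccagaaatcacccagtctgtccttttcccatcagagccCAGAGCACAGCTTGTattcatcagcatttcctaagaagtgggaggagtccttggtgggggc
Capitals mark the longest run of bases that both hold, 15 bases. Aligned end to end, the regions had 178 identical bases of 218 aligned (81.7%), gaps left out. By the same measure the Serpina3n region was 79.8% identical to that of Serpina1d and 76.5% to that of Serpina3j. The letters TTCNNNGAA, the core site of STAT factors, were searched on both strands and occurred in the Serpina3i region and not in that of Serpina3n. They occurred in 7.02% of the 32851 upstream regions of the table and in 6 of the 47 members that have a region there.

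Serpina10 encodes the inhibitor of activated factor X that works with protein Z, and its level in sham was low and even. Its log2 signal was 8.15, 7.85 and 8.44 in norUDCA-fed CBDL, 8.88, 9.18 and 8.96 in CBDL, and 5.46, 5.50 and 5.53 in sham. No 2 groups overlapped. The increase in CBDL over sham was 3.51 (SE 0.15, adjusted p = 6.27e-06), or 11.4-fold. norUDCA-fed CBDL differed from CBDL by -0.86 (SE 0.15, adjusted p = 0.0124) and from sham by 2.65 (SE 0.15, adjusted p = 6.14e-05). The call against CBDL ended without sham_159 and CBDL_165 together (adjusted p = 0.0533). Of its target proteases, F10 was 5.71 ± 0.08 in norUDCA-fed CBDL, 6.17 ± 0.31 in CBDL and 5.99 ± 0.11 in sham (SD, n = 3 each), with no call in any comparison.

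Serpina6 encodes corticosteroid-binding globulin, the carrier of glucocorticoids in blood. Its log2 signal was 5.44, 5.44 and 5.80 in norUDCA-fed CBDL, 5.60, 5.63 and 5.93 in CBDL, and 4.51, 4.68 and 5.01 in sham. Both ligated groups were above sham on every array and overlapped each other, though the sham levels were in the range where signal above background is not shown. CBDL was higher than sham by 0.98 (SE 0.16, adjusted p = 0.00177). norUDCA-fed CBDL differed from CBDL by -0.16 (95% interval -0.52 to 0.20, adjusted p = 0.685) and from sham by 0.82 (SE 0.16, adjusted p = 0.0257). The last call ended without any 1 of sham_158, sham_159 and the 3 norUDCA-fed CBDL arrays (adjusted p between 0.0566 and 0.117). Of 11 measured genes of hormone carriage and response, 1 rose and 4 fell in CBDL against sham. The one that rose was Fkbp5, a glucocorticoid-responsive chaperone gene, at 1.24 (SE 0.20, adjusted p = 0.00168). Tsc22d3, the other glucocorticoid-responsive gene of the list, differed by 0.11 (SE 0.15, adjusted p = 0.665) with no call. Ttr, the carrier of thyroid hormone, changed by -2.07 (SE 0.32, adjusted p = 0.00126). Agt, the angiotensinogen gene, which belongs to the serpin fold under another name, was 8.24 ± 0.18 in norUDCA-fed CBDL, 8.24 ± 0.01 in CBDL and 8.12 ± 0.12 in sham (SD, n = 3 each), with no call. The thyroid carrier gene Serpina7 had no call in any comparison, and its 1 high array was CBDL_165 at 5.52 against 4.38 and 4.63 on the other CBDL arrays.

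The liver is the main source of Serpina3n, Serpina10 and Serpina6 in blood, so hepatocyte markers are given beside them. Of 13 hepatocyte markers, of which Serpinc1 is also a serpin, 1 rose (Fgb) and 4 fell (Alb, Ttr, Apob and Cyp2e1) in CBDL against sham. The log2 of their summed signal was 13.28 to 13.52 in norUDCA-fed CBDL, 12.39 to 13.27 in CBDL and 13.50 to 13.64 in sham. The rows with the highest signals weigh most in that sum, namely Cyp2e1 (mean 12.73 in sham), Ttr (11.40) and Apob (10.8). Ahsg (4.90 in sham) and Tat (4.61) were dim, and Apoa1 and Apoa2 had no call. The sum is therefore not a reading of hepatocyte RNA by itself. The members of the list did not move one way: Fga (1.25, adjusted p = 0.0634) and Fgg (1.54, adjusted p = 0.231) differed upwards in CBDL against sham without a call, and Fgb by 2.48 with one. Alb, the albumin gene, was 6.15 in norUDCA-fed CBDL, 5.53 in CBDL and 7.06 in sham (group means). Summed signals of macrophage, fibroblast and adipose markers were higher in CBDL than in sham, the last at 7.92 to 9.71 in norUDCA-fed CBDL, 9.47 to 10.96 in CBDL and 7.55 to 8.67 in sham. The part of any of these cells in the values of the 3 serpins was not tested.

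The alpha-1-antitrypsin genes, named for a human inhibitor of neutrophil elastase, exist in mice as a cluster of near copies and differed among themselves. Which of the mouse copies inhibit that enzyme was not examined here. The Serpina1d and Serpina1c rows fell in CBDL against sham, while the rows of Serpina1a, Serpina1b and Serpina1e had no call in any comparison. Serpina1d had log2 signals of 10.44, 11.38 and 10.45 in norUDCA-fed CBDL, 8.26, 6.73 and 9.78 in CBDL, and 11.25, 11.17 and 11.15 in sham. The sham arrays were close together, whereas the CBDL arrays were spread widely, with CBDL_165 lowest and CBDL_170 highest. The difference of CBDL from sham was -2.93 (SE 0.60, adjusted p = 0.00642), or 7.64-fold lower. norUDCA-fed CBDL exceeded CBDL by 2.50 (SE 0.60, adjusted p = 0.0382). Leaving out any 1 of the 8 arrays other than CBDL_170 ended that call (adjusted p between 0.0572 and 0.15). norUDCA-fed CBDL differed from sham by -0.43 (95% interval -1.78 to 0.92, adjusted p = 0.77).

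Serpina1c had log2 signals of 4.83, 6.58 and 5.58 in norUDCA-fed CBDL, 4.81, 4.68 and 4.56 in CBDL, and 6.89, 6.999 and 6.89 in sham. Here the CBDL arrays were close together and the norUDCA-fed CBDL arrays spread, with norUDCA_CBDL_172 beside the CBDL arrays and norUDCA_CBDL_175 nearer to sham. CBDL differed from sham by -2.24 (SE 0.34, adjusted p = 0.00115), with CBDL at a level where signal above background is not shown. norUDCA-fed CBDL differed from CBDL by 0.98 (95% interval 0.22 to 1.74, adjusted p = 0.131) and from sham by -1.26 (95% interval -2.02 to -0.50, adjusted p = 0.0852). The difference from CBDL was 1.40 and passed without norUDCA_CBDL_172 (adjusted p = 0.0352), and was 0.52 without norUDCA_CBDL_175. The difference from sham was -1.72 and passed without norUDCA_CBDL_175 (adjusted p = 0.00634). Serpina1a averaged 6.21 ± 0.20 in norUDCA-fed CBDL, 5.75 ± 0.16 in CBDL and 5.85 ± 0.10 in sham (SD, n = 3 each). Serpina1b averaged 5.84 ± 0.08 in norUDCA-fed CBDL, 5.81 ± 0.50 in CBDL and 5.79 ± 0.08 in sham, and Serpina1e 5.11 ± 0.24, 5.34 ± 0.15 and 5.26 ± 0.23 in the same groups (SD, n = 3 each). The intervals of CBDL minus sham were -0.39 to 0.19 for Serpina1a, -0.44 to 0.48 for Serpina1b and -0.28 to 0.43 for Serpina1e. Whether the probes of one copy also read another was not tested, so the split of the signal among the 5 copies is uncertain.

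The stretch before the start of the 5 copies is shown because these genes had different values although their upstream regions are almost alike. It comes from RefSeq on GRCm38.p6, minus strand, at chr12:103863620-103863680 (Serpina1a), chr12:103738194-103738255 (Serpina1b), chr12:103904956-103905017 (Serpina1c), chr12:103773634-103773689 (Serpina1d) and chr12:103956954-103957015 (Serpina1e).
Serpina1a: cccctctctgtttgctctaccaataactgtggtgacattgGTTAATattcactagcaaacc
Serpina1b: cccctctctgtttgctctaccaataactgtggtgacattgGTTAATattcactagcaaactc
Serpina1c: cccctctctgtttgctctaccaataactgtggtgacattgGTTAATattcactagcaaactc
Serpina1d: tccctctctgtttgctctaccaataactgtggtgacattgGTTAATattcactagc
Serpina1e: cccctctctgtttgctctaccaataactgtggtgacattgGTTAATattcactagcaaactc
Capitals mark GTTAAT, letters bound by HNF1, a transcription factor of liver and proximal tubule, searched on both strands. It begins 21 bases before the annotated start in Serpina1a, 26 in Serpina1b, 27 in Serpina1c, 16 in Serpina1d and 78 in Serpina1e. GTTAAT occurred in 6.43% of the 32851 upstream regions of 250 bases and in 9 of the 47 members with a region. These 9 include the 5 near copies, so the 2 shares are not a like comparison. All 5 copies share an unbroken run of 55 bases around it, and pairs of their regions were 92.1% to 98.4% identical over 187 to 248 aligned bases. That run and the capitals occur both in the genes whose rows fell (c and d) and in those with no call (a, b and e), while the letters on either side of the run differ between some copies.

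Further genes of the cluster fell by small amounts. Serpina1f, whose region was 64.2% identical to that of Serpina1d, averaged 10.55 ± 0.06 in norUDCA-fed CBDL, 9.76 ± 0.50 in CBDL and 10.46 ± 0.11 in sham (SD, n = 3 each). CBDL differed from sham by -0.70 (SE 0.21, adjusted p = 0.037). Leaving out any 1 of the 8 arrays other than CBDL_170 ended that call (adjusted p up to 0.102), and the difference was -0.46 without CBDL_165. Against CBDL, norUDCA-fed CBDL differed by 0.79 (adjusted p = 0.051), and by 1.05 without CBDL_170 (adjusted p = 0.0033). Serpina11 averaged 5.35 ± 0.09 in norUDCA-fed CBDL, 4.90 ± 0.20 in CBDL and 5.51 ± 0.12 in sham (SD, n = 3 each). It differed by -0.61 in CBDL against sham (SE 0.12, adjusted p = 0.00587), again with CBDL at a level where signal above background is not shown.

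Serpinf2 encodes alpha-2-antiplasmin, the main inhibitor of plasmin, the enzyme that dissolves fibrin. Its log2 signal was 9.72, 10.29 and 9.84 in norUDCA-fed CBDL, 8.26, 7.28 and 9.35 in CBDL, and 10.90, 11.39 and 11.26 in sham. The groups did not overlap, and CBDL_165 was again the lowest array and CBDL_170 the highest of the CBDL arrays. CBDL differed from sham by -2.89 (SE 0.42, adjusted p = 0.000908), or 7.41-fold lower. norUDCA-fed CBDL exceeded CBDL by 1.66 (SE 0.42, adjusted p = 0.0443). Leaving out any 1 of the 8 arrays other than CBDL_170 ended that call (adjusted p between 0.0622 and 0.164). norUDCA-fed CBDL differed from sham by -1.23 (95% interval -2.17 to -0.30, adjusted p = 0.174), which passed without CBDL_165 (adjusted p = 0.0472) or CBDL_170 (adjusted p = 0.0409) in the fit. Plg, the plasmin precursor gene, was dim with no call, and Plat, the tissue plasminogen activator gene, was 9.85 ± 0.16 in norUDCA-fed CBDL, 10.19 ± 0.11 in CBDL and 8.92 ± 0.24 in sham (SD, n = 3 each). Plat rose by 1.27 in CBDL against sham (SE 0.14, adjusted p = 0.0002).

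Markers of kidney epithelium are given beside the 5 serpins that fell. All 10 measured proximal tubule markers fell in CBDL against sham (median -1.16), 7 rose and 0 fell in norUDCA-fed CBDL against CBDL (median 1.06), and 0 were called in norUDCA-fed CBDL against sham. The log2 of their summed signal was 15.29 to 15.36 in norUDCA-fed CBDL, 13.87 to 14.79 in CBDL and 15.64 to 15.70 in sham. CBDL_165, the lowest array for Serpina1d, Serpinf2 and Serpina1f, also had the lowest marker sum (13.87), and CBDL_170, the highest of the CBDL arrays for them, had the highest of the CBDL sums (14.79). Over all genes, the first principal component (58.3% of the variance) ordered the CBDL arrays in the same way. It was 57.0 on CBDL_165, 40.6 on CBDL_164 and 26.1 on CBDL_170, so this order was not particular to these genes. Serpina1c and Serpina11 did not have this order within CBDL: Serpina1c was lowest on CBDL_170 (4.56), and Serpina11 was lowest on CBDL_165 (4.67) and highest on CBDL_164 (5.05). The sums of 4 collecting duct markers (10.80) and 4 thick limb and distal tubule markers (13.62) were also lowest on CBDL_165, and 2 markers of each list fell in CBDL against sham. The part of the tubule markers in these results was not tested.

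**Figure D2:**
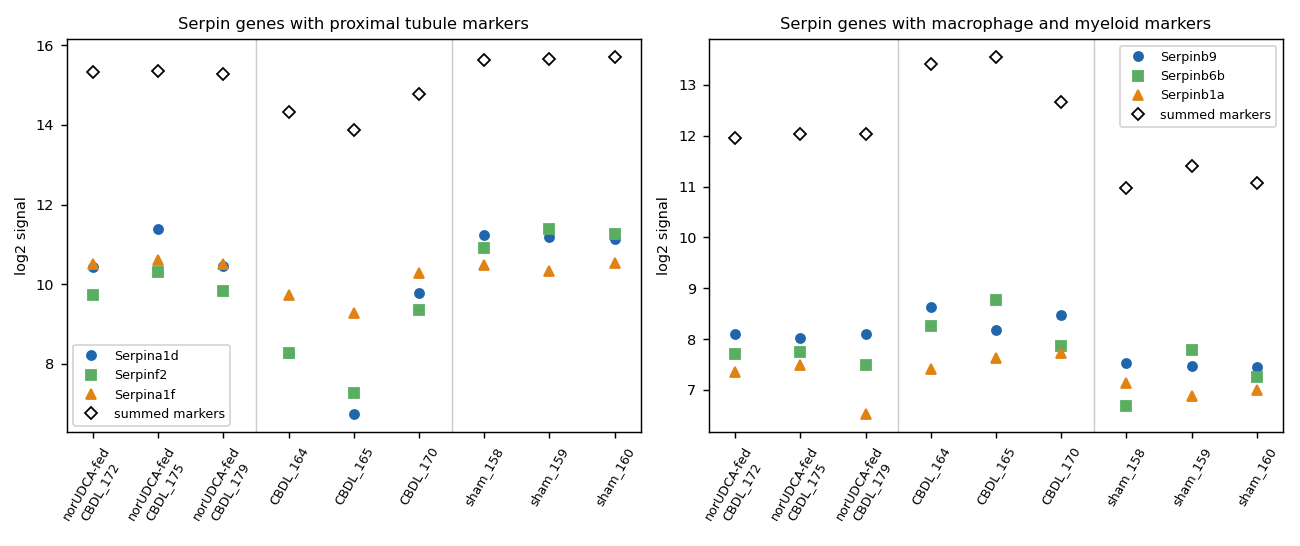
Log2 signal (y axis) on each of the 9 arrays (x axis, by group) for Serpina1d, Serpinf2 and Serpina1f with the summed signal of 10 proximal tubule markers (left), and for Serpinb9, Serpinb6b and Serpinb1a with that of 13 macrophage and myeloid markers (right). On the left CBDL_165 is the lowest array in each row of points; on the right the marker sum is 12.67 to 13.54 on CBDL arrays and 10.97 to 11.41 on sham arrays.

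Among the intracellular clade B serpins, 2 of 25 rose in CBDL against sham and 0 fell, while 10.3% of all genes rose and 11.5% fell, and 19 of the 25 were dim. Serpinb9, an inhibitor of granzyme B that shields cells from their own or a killer cell's granules, had log2 signals of 8.09, 8.03 and 8.11 in norUDCA-fed CBDL, 8.63, 8.19 and 8.47 in CBDL, and 7.52, 7.47 and 7.45 in sham. The groups were apart, with norUDCA-fed CBDL between the others. CBDL exceeded sham by 0.95 (SE 0.12, adjusted p = 0.00039) and norUDCA-fed CBDL exceeded sham by 0.60 (SE 0.12, adjusted p = 0.026). The second call ended without any 1 of the sham and norUDCA-fed CBDL arrays (adjusted p between 0.0635 and 0.117). norUDCA-fed CBDL differed from CBDL by -0.35 (95% interval -0.62 to -0.09, adjusted p = 0.115), which passed without CBDL_165 (adjusted p = 0.0409). Gzmb, the granzyme B gene, was dim, at 3.98 ± 0.09 in norUDCA-fed CBDL, 4.24 ± 0.25 in CBDL and 4.04 ± 0.18 in sham (SD, n = 3 each), with no call.

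Serpinb6b, reported in mouse as an inhibitor of granzyme A, had log2 signals of 7.70, 7.74 and 7.49 in norUDCA-fed CBDL, 8.26, 8.78 and 7.86 in CBDL, and 6.68, 7.80 and 7.25 in sham. The lowest CBDL array was only slightly above the highest sham array, sham_159. CBDL exceeded sham by 1.06 (SE 0.28, adjusted p = 0.0242), and this call ended without sham_158, sham_160, CBDL_164 or CBDL_165 (adjusted p between 0.0621 and 0.0846). norUDCA-fed CBDL differed from CBDL by -0.65 (95% interval -1.29 to -0.02, adjusted p = 0.242) and from sham by 0.40 (95% interval -0.23 to 1.03, adjusted p = 0.522). Serpinb1a, an inhibitor of neutrophil elastase and cathepsin G, had log2 signals of 7.35, 7.49 and 6.52 in norUDCA-fed CBDL, 7.41, 7.64 and 7.73 in CBDL, and 7.13, 6.88 and 7.002 in sham. The CBDL arrays were all above the sham arrays, and norUDCA_CBDL_179 was the lowest of the 9. CBDL differed from sham by 0.59 (95% interval 0.09 to 1.09, adjusted p = 0.0941), which passed without norUDCA_CBDL_179 in the fit (adjusted p = 0.0104).

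Markers of immune cells are given beside these genes. All 13 macrophage and myeloid markers rose in CBDL against sham (median 2.18), 11 fell and 0 rose in norUDCA-fed CBDL against CBDL, and 10 rose in norUDCA-fed CBDL against sham. The log2 of their summed signal was 11.95 to 12.04 in norUDCA-fed CBDL, 12.67 to 13.54 in CBDL and 10.97 to 11.41 in sham. Within CBDL, Serpinb6b had the order of these sums, highest on CBDL_165 and lowest on CBDL_170, which is also the order of the first principal component. Serpinb9 and Serpinb1a did not. Serpinb9 was lowest on CBDL_165 (8.19), where the sum was highest, and Serpinb1a was highest on CBDL_170 (7.73), where the sum was lowest. Of 11 neutrophil markers 3 rose in CBDL against sham, 8 of the 11 were dim, and the summed signal was 8.41 to 8.64 in norUDCA-fed CBDL, 8.49 to 8.89 in CBDL and 8.33 to 8.40 in sham. Of 8 cytotoxic lymphocyte markers 0 were called in any comparison. The part of these cells in the clade B results was not tested.

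The other 23 clade B members had no call in CBDL against sham, and none was called in another comparison. They were Serpinb1a, Serpinb1b, Serpinb1c, Serpinb2, Serpinb3a, Serpinb3c, Serpinb3d, Serpinb5, Serpinb6a, Serpinb6c, Serpinb6d, Serpinb6e, Serpinb7, Serpinb8, Serpinb9b, Serpinb9c, Serpinb9d, Serpinb9e, Serpinb9f, Serpinb9g, Serpinb11, Serpinb12 and Serpinb13. Their differences in CBDL against sham were between -0.27 and 0.59. Serpinb2, the gene of plasminogen activator inhibitor 2, was highest on CBDL_165 (4.26) and at most 3.18 on every other array. Serpinb6a, whose human relative inhibits cathepsin G, was 6.56 ± 0.09 in norUDCA-fed CBDL, 6.71 ± 0.37 in CBDL and 6.23 ± 0.28 in sham (SD, n = 3 each). Serpinb8 stayed between 6.67 and 7.16 on the 9 arrays. For the dim members small changes were not detectable at this signal.

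Serpinh1, also called HSP47, does not inhibit proteases but is the chaperone that binds newly made collagen in the endoplasmic reticulum. Its log2 signal was 7.59, 7.58 and 7.60 in norUDCA-fed CBDL, 8.24, 8.01 and 7.83 in CBDL, and 7.58, 7.24 and 7.35 in sham. The CBDL arrays stood above all others, and norUDCA-fed CBDL lay just above the highest sham array. CBDL exceeded sham by 0.64 (SE 0.13, adjusted p = 0.00534), or 1.56-fold. norUDCA-fed CBDL differed from CBDL by -0.44 (95% interval -0.72 to -0.15, adjusted p = 0.0743, and 0.0375 without CBDL_170) and from sham by 0.20 (95% interval -0.08 to 0.49, adjusted p = 0.469). Of 29 measured genes of collagen chains and procollagen processing, 21 rose and 0 fell in CBDL against sham (median 1.27, against -0.06 over all genes). In norUDCA-fed CBDL against CBDL 17 of them fell and 0 rose (median -0.71), and against sham 11 rose and 0 fell (median 0.50). The first count was 11 without CBDL_164 and 10 without norUDCA_CBDL_175, and the second was 5 without sham_160 or norUDCA_CBDL_172 and 4 without norUDCA_CBDL_179. Col1a1, a client of the chaperone, differed by 3.06 in CBDL against sham (SE 0.17, adjusted p = 1.84e-05). All 8 fibroblast markers, of which Col1a1 and Col1a2 are also in the collagen list, rose in CBDL against sham. Their summed log2 signal was 12.62 to 12.73 in norUDCA-fed CBDL, 13.28 to 13.49 in CBDL and 11.70 to 12.15 in sham. The part of the fibroblast markers in the Serpinh1 value was not tested.

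Serpinf1 encodes pigment epithelium-derived factor, a secreted serpin that does not inhibit proteases and restrains vessel growth. Its log2 signal was 6.65, 6.74 and 6.90 in norUDCA-fed CBDL, 7.62, 7.95 and 6.91 in CBDL, and 6.93, 6.46 and 6.93 in sham. CBDL_164 and CBDL_165 were above all other arrays, and CBDL_170 lay among the sham arrays. The difference of CBDL from sham was 0.72 (95% interval 0.18 to 1.26, adjusted p = 0.0589), which passed without CBDL_170 (1.01, adjusted p = 0.00372). norUDCA-fed CBDL differed from CBDL by -0.73 (95% interval -1.26 to -0.19, adjusted p = 0.114, and 0.0089 without CBDL_170) and from sham by -0.01 (95% interval -0.54 to 0.53).

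The remaining members had no call in any comparison. Serpinc1, the gene of antithrombin, averaged 5.50 ± 0.15 in norUDCA-fed CBDL, 4.88 ± 0.21 in CBDL and 5.27 ± 0.31 in sham (SD, n = 3 each), and its norUDCA-fed CBDL arrays lay above the CBDL arrays (difference 0.62, 95% interval 0.25 to 1.002, adjusted p = 0.0575). Serpini1, the gene of neuroserpin, which inhibits tissue plasminogen activator in nerve tissue, differed by 0.22 in CBDL against sham (95% interval -0.11 to 0.55). Serpind1, the gene of heparin cofactor II, Serpine3 and Serpini2 were dim. So were the clade A genes Serpina5, the protein C inhibitor, Serpina9, Serpina12, known as the adipokine vaspin, Serpina16 and the pseudogene Serpina4-ps1. The 2 serpin rows with several symbols and a second row of Serpinb9b, which the rule left out, had no call either. In all, 42 members were called in no comparison, and 32 of them were dim.

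**Figure D3:**
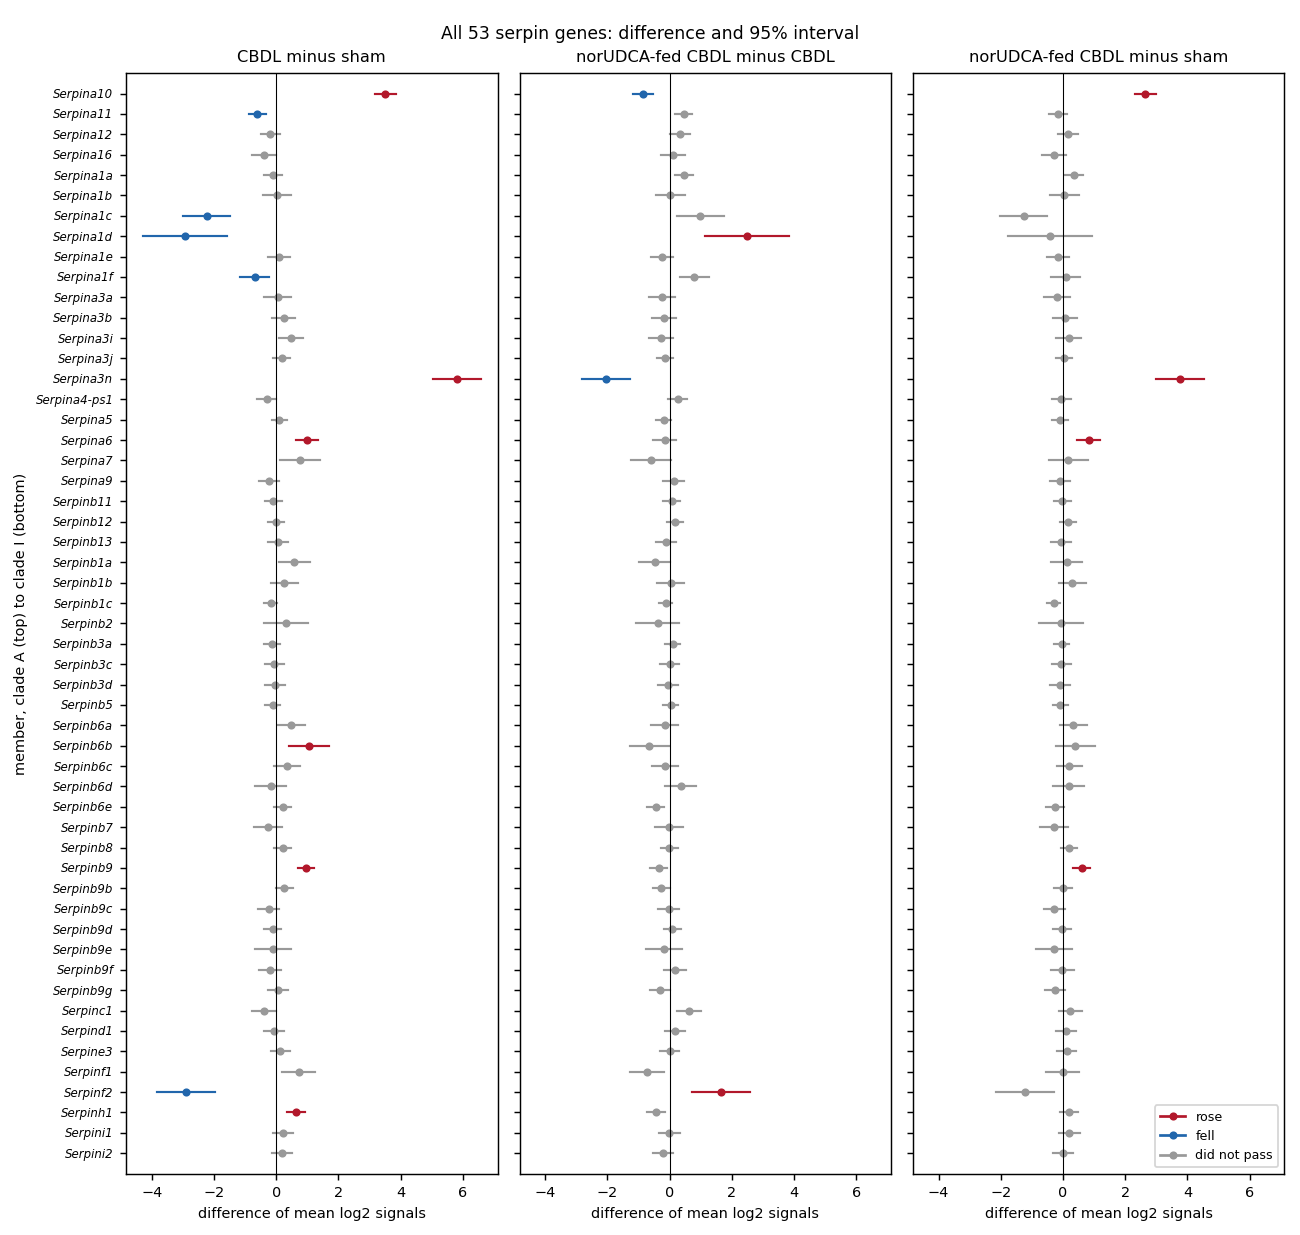
Difference of mean log2 signals (x axis, the same in all 3 panels) for all 53 serpin genes (y axis, clade A at the top to clade I at the bottom) in the 3 comparisons: CBDL less sham on the left, norUDCA-fed CBDL less CBDL in the middle, norUDCA-fed CBDL less sham on the right. Points are differences and lines are 95% intervals; genes called by limma are red where they rose and blue where they fell, 11 in the left panel and 4 in each of the others.

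Genes around the serpins were described from 4 lists. Of 43 measured proteases with their cofactors and receptors, 12 rose, 5 fell and 26 did not pass in CBDL against sham (median 0.03, against -0.06 over all genes). Those that rose included the thrombin receptor gene F2r at 1.97 (SE 0.12, adjusted p = 1.85e-05), the urokinase receptor gene Plaur at 1.71, the clearance receptor gene Lrp1 at 1.66 and the cysteine protease gene Ctss at 2.88. Ctss is also in the list of macrophage and myeloid markers. Proc, the gene of the anticoagulant protease protein C, was the largest decrease of the list at -1.75 (SE 0.19, adjusted p = 0.000198). Plau, the urokinase gene, was 11.78 ± 0.22 in norUDCA-fed CBDL, 12.02 ± 0.18 in CBDL and 11.75 ± 0.09 in sham (SD, n = 3 each), with no call, and the neutrophil elastase gene Elane had no call either. In norUDCA-fed CBDL against CBDL, 3 of the protease list rose and 6 fell, with Proc at 1.01 and Lrp1 at -1.02. These 9 calls became 4 without CBDL_164, CBDL_165, norUDCA_CBDL_172 or norUDCA_CBDL_175, and 6 without norUDCA_CBDL_179.

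Of 28 measured cytokines, receptors and factors known to induce serpin genes, 20 rose and 0 fell in CBDL against sham (median 0.93). The 8 without a call included Osm, the oncostatin M gene (0.11, adjusted p = 0.623), the dim Il6 (0.27, adjusted p = 0.316), Il6st and Lifr. Osmr, the oncostatin M receptor gene, differed by 2.26 (SE 0.16, adjusted p = 3.51e-05), Socs3, a feedback inhibitor of cytokine signalling, by 1.71, Stat3 by 1.09 and Tgfb1 by 1.45. In norUDCA-fed CBDL against CBDL 13 of the 28 fell and 0 rose (median -0.57), with Osmr at -0.98 and Socs3 at -0.97, and against sham 9 rose and 0 fell (median 0.37). The first count was 7 without CBDL_164 and 5 without norUDCA_CBDL_175. The second was 5 without sham_160 or norUDCA_CBDL_175, 4 without norUDCA_CBDL_172 or norUDCA_CBDL_179, and 6 without sham_158. In the hormone list 4 rose and 0 fell in norUDCA-fed CBDL against CBDL, and this count was 0 to 2 without any 1 array other than CBDL_170 and 3 without CBDL_170. Whether these genes acted on the serpins was not tested.

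**Figure D4:**
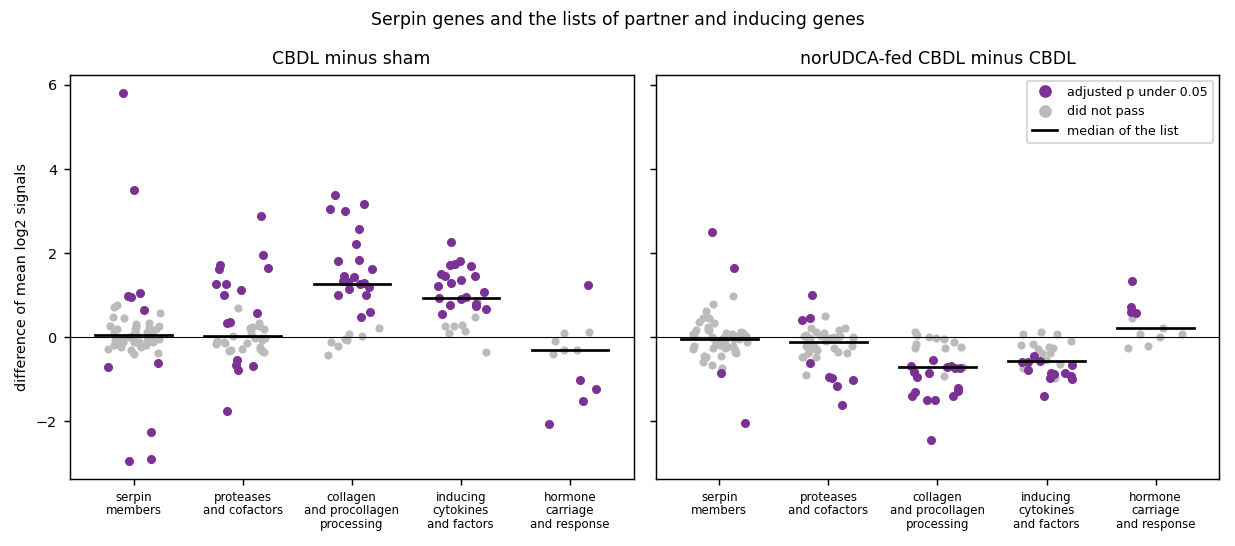
Difference of mean log2 signals (y axis) for the 53 serpin genes and the 4 lists of 43, 29, 28 and 11 measured genes (x axis), in CBDL minus sham (left) and norUDCA-fed CBDL minus CBDL (right). Each point is a gene, purple where its adjusted p was under 0.05, and black bars are medians: 0.05 for the serpin genes and 1.27 for the collagen list on the left, -0.03 and -0.71 on the right.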

How the data were processed

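RNA of 9 mouse kidney samples was measured on expression arrays. The values as deposited are log2 signals for each transcript cluster; the authors used RMA and Partek 6.6, per the submitters' processing notes. RNA extraction used TRIzol and array targets were made with an Affymetrix whole-transcript kit, per the labels. The array model, genome build, filters and any batch are not given in the sources used here.

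Of 41345 rows, 23521 carry 1 gene symbol, 1814 several and 16010 none in the platform annotation used. Each gene was taken from its brightest single-symbol row over the 9 arrays, which gave 22180 genes. All 53 members matched RefSeq by gene ID. limma 3.58.1 in R 4.3.3 was fitted to all 9 arrays with 1 mean per group (6 residual and 3.77 prior degrees of freedom), without a filter. Intervals are 95%. For 3 arrays against 3 the smallest two-sided p of an exact permutation test is 0.1. The fit was tested on simulated data. Upstream regions came from RefSeq (GRCm38.p6) and were aligned with Biopython 1.88.

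Members and lists were chosen with earlier results of these data known, and no p is adjusted over a list alone. The rule gave values by array to members called with a log2 difference of at least 1 and always to Serpina3n, Serpinh1, Serpinf1, Serpina6, Serpinb1a and Serpinb9, and means to other called members. List genes named were drawn from those with the lowest p and from fixed examples. Not every gene with a low p is named: F3, Nfkbiz, Klf6 and Il1r1, which rose in CBDL against sham, were left out. F10, Plg, Tsc22d3, Osm, Il6, Il6st, Lifr, Serpina1a, Serpina1b, Serpina1e, Serpina3i, Serpina7, Serpinb2, Serpinb6a, Serpinb8, Serpinc1 and Serpini1 were described after their values were seen. Protein sequences were not used here. Alternatives were a prior trend, array weights, no moderation, only the 6 arrays compared, no dim genes, row means, median centring, leaving out each array, and, chosen after seeing the data, leaving out sham_159 with CBDL_165.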

Additional observations from a re-analysis of the deposited data

How the results depend on the processing

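No paired analysis was possible because the groups share no replicate number. The count of called members in CBDL against sham was within 1.5 times the 11 reported under every alternative run, and was 9 to 12 when 1 array was left out. For norUDCA-fed CBDL against CBDL (4 calls) it was 10 with array weights, 9 without dim genes, 8 with arrays centred on their medians, 2 with only the 6 arrays compared, 2 without sham_159 and CBDL_165 together, and 1 to 9 when 1 array was left out. Array weights called 9.57% of all genes there. The fit without dim genes called 13.7% of the genes it kept, and only 21 of the 53 members were in it. For the other settings the share of all genes called is not given here, so those counts cannot be set against it. Without moderated variances limma called 0 members, while 15 had an unadjusted p under 0.05 in the moderated fit. For norUDCA-fed CBDL against sham (4 calls) it was 2 without moderation and 2 to 5 when 1 array was left out. Calls that ended or were gained without 1 array are given beside their values. So are list counts that then moved by over 1.5 times, except those of the protease and hormone lists in norUDCA-fed CBDL against sham. There, leaving out 1 array turned 6 calls of the protease list into 2 to 7, and 2 calls of the hormone list into 0 to 3. Of the named differences, 6 changed sign, all uncalled values near 0 in norUDCA-fed CBDL against sham. Leaving out 1 array put Serpinb1a between -0.072 and 0.41, and at -0.00055 without norUDCA_CBDL_172. It put Serpinf1 between -0.16 and 0.072, the highest without sham_158, at 0.071 without sham_160, 0.05 without norUDCA_CBDL_172 and 0.0039 without norUDCA_CBDL_175. The cause of these shifts was not tested. With 3 arrays per group and 32 dim members, small differences were not detectable.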
